A study of Mus musculus with 6 samples.

Results

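The genes described here mark 3 glands that lie in the neck near the fork of the carotid artery: the salivary glands (Smr2, Smr3a, Aqp5, Amy1 and Bpifa2), the thyroid (Tg and Slc26a4) and the parathyroid (Pth and Gcm2). They were read as a check for gland tissue in carotid body samples. Every probe set whose platform annotation gave 1 of these 9 symbols alone was taken, which gave 10 probe sets for 8 genes, among 45037 probe sets and 18193 named genes in all. Gcm2 had no such probe set and has no value here, and 1 further probe set that names Amy1 together with another gene was not used.

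The carotid body is the small organ at the carotid fork that senses blood oxygen. Total RNA of pooled carotid bodies was measured on 6 Affymetrix arrays, 3 for each of 2 untreated inbred mouse strains, both labelled as male and aged 28 days. For A/J, arrays 1, 2 and 3 carried RNA of 40, 42 and 38 carotid bodies (20, 21 and 19 mice). For DBA/2J, they carried RNA of 38, 36 and 38 (19, 18 and 19 mice). An array is therefore 1 pool, the spread is that between pools, and 3 arrays per strain limit the precision of every value. In such bulk RNA, fewer cells of a type and less RNA per cell cannot be told apart.

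Salivary acinar cells make saliva, and their secreted proteins, among them amylases, mucins and small proline-rich proteins, rank among the most abundant transcripts of those glands. Thyroid follicular cells store thyroglobulin as the precursor of thyroid hormone and move iodide across their membranes. Parathyroid cells release parathyroid hormone when blood calcium falls. They arise in the embryo from the third pharyngeal pouch, and the carotid body forms at the artery of the third arch.

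A pair of arrays stood apart in ways that touch the results. A/J array 3 was far above the other arrays in a set of gland secretory transcripts, some of which were also raised on A/J array 2, as described below. DBA/2J array 3 carried Xist, the RNA of the inactive X chromosome, at signals of 1768 and 3639 on 2 probe sets whose highest values on the other 5 arrays were 38.4 and 355, although all pools were labelled male. Genes of the Y chromosome were not lower on it. The brightest probe sets of Eif2s3y, Kdm5d and Uty had 2063, 446 and 756 there. On the other 5 arrays they had 1946 to 2155, 345 to 561 and 393 to 566. Array medians lay between 163.6 and 183. The tissue label was checked on 17 measured type I (glomus) cell genes, all of which were bright enough to be tested. Their summed signal lay between 41482 and 49571 in A/J and between 82637 and 90446 in DBA/2J. Between the strains, 10 were called higher in DBA/2J and 0 lower, where 2.17% and 1.6% of all genes tested were. These counts compare the strains and do not check the label.

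Among the gland markers, 1 gene was far lower in DBA/2J, 1 was higher, and the others were dim or did not differ beyond the spread between arrays. Smr2, a secreted protein of the submandibular gland, was 17.9 times as high in A/J as in DBA/2J. Slc26a4, the anion exchanger pendrin of thyroid, kidney and inner ear, was 2.89 times as high in DBA/2J. The thyroid hormone precursor Tg and the salivary amylase Amy1 were bright enough to be tested and had no called difference. Smr3a, Aqp5, Bpifa2 and Pth were too dim to enter the test. By limma with Benjamini-Hochberg adjustment over all 27022 probe sets tested, 2 of the 4 member genes tested passed an adjusted p of 0.05, 1 lower and 1 higher in DBA/2J. Over the whole array 3.27% of probe sets and 3.77% of 13006 genes passed, with 1.6% of genes lower and 2.17% higher. Without the filter on dim probe sets, all 8 genes could be fitted. Then 2 of 8 passed, where 2.36% of all genes did, and 4 had an unadjusted p under 0.05, where 15.1% of all genes did. The groups did not overlap in 3 of 8, against 20.3% of all genes. The median log2 difference of the 8, taken as DBA/2J minus A/J with log2(signal + 16) as the scale throughout, was -0.36, and that of all genes was 0.02.

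**Figure D1:**
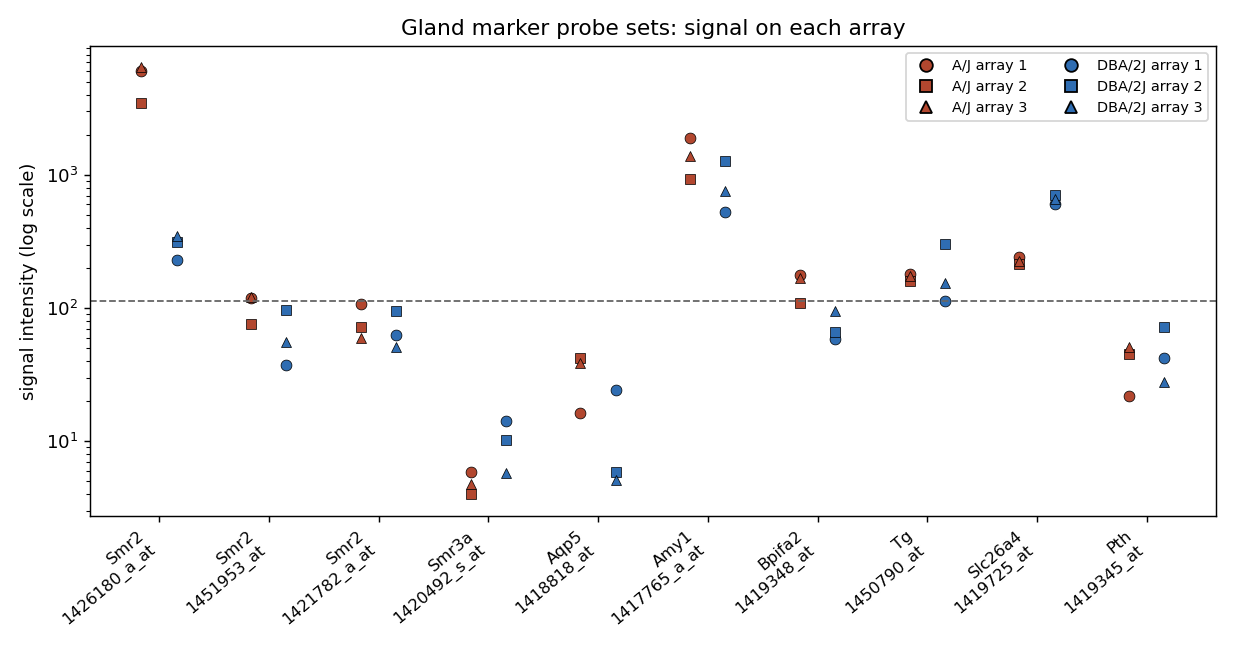
Signal intensity (log axis) of the 10 gland marker probe sets on each array, A/J in red to the left and DBA/2J in blue to the right of each name, with 1 marker shape per array. The dashed line is the signal of 114 that corresponds to the filter on dim probe sets; only probe set 1426180_a_at of Smr2 and the probe sets of Amy1, Tg and Slc26a4 passed it by their mean.

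Smr2 was read by 3 probe sets that did not behave alike. Probe set 1426180_a_at had signals of 6046, 3491 and 6429.8 on A/J arrays 1, 2 and 3. On DBA/2J arrays 1, 2 and 3 it had 229, 311.5 and 351. The lowest A/J value was far above the highest DBA/2J value, and within A/J array 2 was the low one. The A/J mean was 5322 ± 1598 and the DBA/2J mean 297 ± 61.9 (± SD, n = 3 arrays each), a log2 difference of -4.06 (SE 0.27, limma adjusted p = 0.000179). The other probe sets of the gene were dim on every array. Probe set 1451953_at had 119, 75.4 and 121.5 in A/J and 37.3, 96.2 and 55.5 in DBA/2J. Probe set 1421782_a_at had 107, 71.9 and 59.8 in A/J and 62.9, 94.9 and 51.0 in DBA/2J. On both of them the strains overlapped, with log2 differences of -0.66 (limma adjusted p = 0.528, no filter) and -0.16 (adjusted p = 0.909). The Smr2 difference therefore rested on 1 of 3 probe sets, and with the log2 values of all 3 averaged it was -1.63 (limma adjusted p = 0.00618).

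Summed signals of skeletal muscle and brown fat genes were, like Smr2, higher in A/J and lowest within A/J on array 2. Otherwise the order of the arrays differed. Smr2 was highest on array 3 of each strain, and both sums were highest on A/J array 1 and on DBA/2J array 2. The 20 genes of a skeletal muscle list had summed signals of 152582, 58516 and 125913 for A/J arrays 1, 2 and 3. The DBA/2J sums were 2795, 4886 and 2552, so the strains lay far apart, and array 2 was the lowest A/J array here as well. Of 19 list genes tested, 18 were called lower in DBA/2J, where 1.6% of all genes tested were. Several, among them Mybpc2 and Myh4 (DBA/2J means 17.1 and 48.6), were dim in DBA/2J and passed the filter through A/J. The summed signal of 7 brown fat genes was 43968, 23691 and 31548 in A/J and 9612, 18284 and 12222 in DBA/2J. The strains did not overlap here either, and array 2 was again the lowest in A/J. Here 2 of 6 genes tested, Ucp1 and the deiodinase Dio2, were called lower in DBA/2J, against the same 1.6% of all genes. Of the 5 genes whose log2 values were most like those of Smr2 over the 6 arrays, both Ckm, the muscle creatine kinase (Pearson r = 0.992), and Myom2, a protein of the sarcomere M-band (r = 0.995), belong to muscle. The others were Itm2a (r = 0.995), Pak1ip1 (r = 0.994) and the nuclear RNA Neat1 (r = 0.992). A correlation over 6 arrays in 2 strains is set largely by the strain difference and is given as a description. With each strain's mean subtracted, the most similar genes were Ccdc166, Slc6a15, Vamp1, Map3k8 and Mrps2 (r from 0.992 to 0.999). These were picked as the highest among all other genes tested, over only 6 arrays, and are likewise a description. With A/J array 2 as the sole A/J array, the Smr2 difference was -3.51 (limma adjusted p = 0.0289). In a fit that also held each array's mean over the muscle list, which separates the strains almost completely, it was -2.20 (SE 0.87, limma adjusted p = 0.495), and 0 probe sets passed in that fit (2498 at an unadjusted p under 0.05). Also on A/J array 2 the muscle sum was 58516, against at most 4886 in DBA/2J, so neither fit separates muscle from strain. The part of muscle or of brown fat in the Smr2 difference was not tested.

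**Figure D2:**
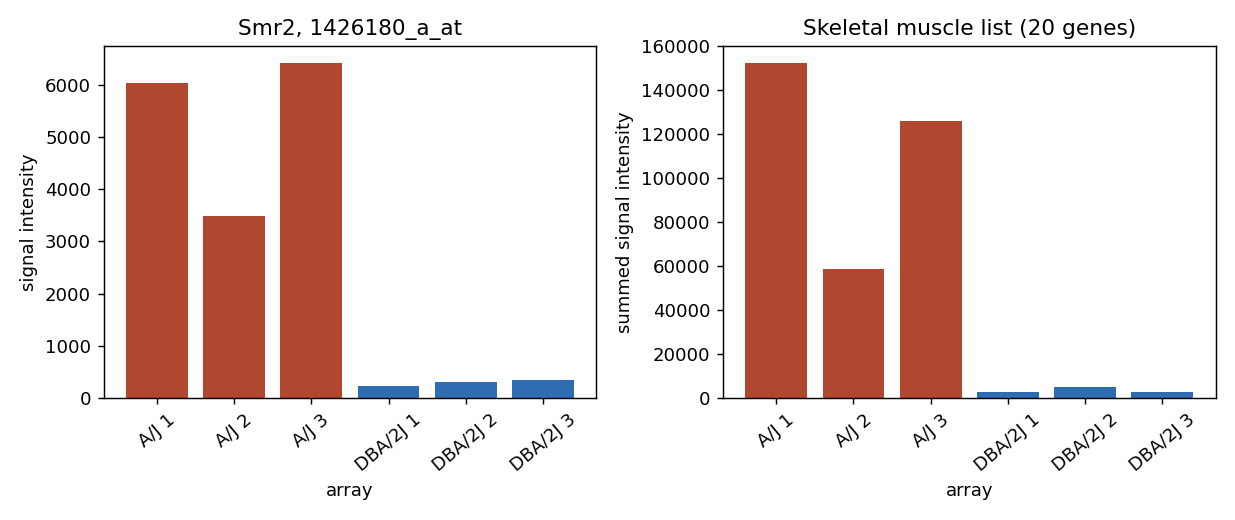
Signal intensity of Smr2 probe set 1426180_a_at (left) and summed signal of the 20 skeletal muscle genes (right), 1 bar per array, A/J in red and DBA/2J in blue. In both panels the 3 A/J arrays exceed the 3 DBA/2J arrays, and A/J array 2 is the lowest of its strain.

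Smr3a, which encodes a related secreted protein of the submandibular gland, is the nearest measured gene before Smr2 in RefSeq order. Its probe set, of a type that can match transcripts of related genes, had signals of 5.9, 4.0 and 4.8 in A/J. In DBA/2J it had 14.1, 10.2 and 5.8. The gene was near the bottom of the scale on all 6 arrays, also on the A/J arrays with high Smr2, and the strains overlapped. The log2 difference was 0.31 (limma adjusted p = 0.633, no filter). The 250 bases before a start site of each gene (RefSeq, GRCm38.p6, plus strand, Smr2 at chr5:88086306-88086555 and Smr3a at chr5:88002275-88002524) are shown because Smr2 carries the main difference and its neighbour is nearly identical there. The start used for Smr2 is the first base of the gene in RefSeq. The start used for Smr3a lies 10970 bases downstream of the first base of that gene's full RefSeq span, so its window lies inside that span. Capitals mark bases without an identical partner in a global alignment.
Smr2: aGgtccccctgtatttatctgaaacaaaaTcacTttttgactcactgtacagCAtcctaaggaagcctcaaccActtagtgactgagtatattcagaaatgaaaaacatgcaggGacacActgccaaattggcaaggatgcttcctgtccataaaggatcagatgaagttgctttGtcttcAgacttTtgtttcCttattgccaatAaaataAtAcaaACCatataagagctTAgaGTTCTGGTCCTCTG
Smr3a: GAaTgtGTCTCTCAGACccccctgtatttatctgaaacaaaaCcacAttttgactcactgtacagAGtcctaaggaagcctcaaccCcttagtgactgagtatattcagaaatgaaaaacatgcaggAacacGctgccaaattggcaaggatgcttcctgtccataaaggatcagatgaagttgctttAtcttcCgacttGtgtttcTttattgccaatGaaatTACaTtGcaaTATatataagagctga
Of 234 aligned bases 216 were identical (92.3%), with 18 mismatches and 32 gap positions. The letters TATAA, searched on the gene's strand, began 28 bases before the start used for Smr2 and 12 bases before that used for Smr3a, and 16.0% of 32851 promoter windows of this length held them. The letters TGTTCT, a half-site bound by androgen and glucocorticoid receptors, searched on both strands, was in neither window and in 16.1% of all of them. The 10 measured genes around Smr2, 5 on each side, were dim: 9 did not enter the test, and their highest signal on any array was 209. Jchain, the joining chain of secreted antibodies, was the 1 that did, and it was not called (limma adjusted p = 0.902). They include the milk casein Csn3, the tooth enamel genes Odam, Amtn, Ambn and Enam, and Prol1, a salivary mucin-like gene. Prol1 had 19.6, 13.5 and 25.1 in A/J and 44.4, 44.1 and 22.3 in DBA/2J. The high Smr2 signal in A/J was thus not shared by its measured neighbours, whose log2 differences ran from -0.82 to 0.63.

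The remaining salivary members gave no called difference. Amy1, the amylase of saliva and liver, had signals of 1893, 939.6 and 1391.5 in A/J. In DBA/2J it had 528, 1278 and 757. DBA/2J array 2 lay inside the A/J range and the strains overlapped, with a log2 difference of -0.75 (SE 0.35, limma adjusted p = 0.363). Bpifa2, the parotid secretory protein, had 177, 109 and 169.7 in A/J. In DBA/2J it had 59.1, 65.7 and 96.0. The strains did not overlap, but the gene was too dim for the test, and without the filter its log2 difference of -0.90 (SE 0.32) had a limma adjusted p of 0.261. Aqp5, the water channel of salivary acinar cells, was near the bottom of the scale, with 16.2, 42.1 and 38.9 in A/J and 24.5, 5.9 and 5.1 in DBA/2J (log2 difference -0.82, limma adjusted p = 0.386, no filter). No detection call was used here, so whether such dim values are above background is unknown.

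A wider list of 33 salivary genes gave the setting. Of these, 23 had a probe set of their own and 7 entered the test. With the brightest probe set standing for each gene, Smr2 was called lower, where 1.6% of all genes tested were, and 6 did not pass. Over all 23 without the filter, 14 log2 differences were negative, against 8718 of 18193 for all genes. The median of the 23 was -0.31, against 0.02 for all genes. For the list genes tested the median was -0.27, and from -0.59 to -0.09 with 1 array left out. The growth factor Egf (log2 difference -0.27) and the acinar transcription factor Bhlha15 (0.06), which is also found in other secretory cells, did not pass.

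Klk1, the tissue kallikrein of submandibular gland and kidney, was read by 4 probe sets that disagreed. The brightest had signals of 595, 444 and 442 in A/J and 653, 664 and 323 in DBA/2J, which overlap (log2 difference 0.09, limma adjusted p = 0.935). The next brightest had 32.8, 79.1 and 20.5 in A/J and 347, 442 and 218 in DBA/2J. On it every DBA/2J array was above every A/J array, opposite to Smr2, and it passed the test (log2 difference 2.62, SE 0.40, limma adjusted p = 0.00875). It lay just above the filter on dim probe sets and did not enter the test without DBA/2J array 1, 2 or 3 or with a pseudocount of 1, and it was not called with A/J array 2 as the only A/J array (1.83, limma adjusted p = 0.256). The 2 dimmer ones, below the filter, were higher in every DBA/2J array too, by 1.85 and 1.69 (limma adjusted p = 0.0800 and 0.118, no filter). With all 4 averaged, Klk1 passed (1.56, limma adjusted p = 0.0338), so that 2 genes of the salivary list passed in place of 1. Of the 4, 3 are of the type prone to cross-hybridisation, and the Klk1 family holds near-identical copies, so these values are uncertain as to the gene.

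The summed signal of the 23 salivary genes was 9989, 6573 and 16027 for A/J arrays 1, 2 and 3. For DBA/2J it was 2629, 3652 and 2613.5, below every A/J array. Without Smr2 the sums were 3943.5, 3082 and 9597 in A/J and 2399.5, 3340.3 and 2263 in DBA/2J. The A/J and DBA/2J arrays then overlapped, and A/J array 3 stood alone.

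That array was high in some salivary genes that the 9 markers do not include, 3 of them on the wider list. Other genes of that list did not stand out there. Mucl2, Pip, Car6 and Lpo had 39.8, 17.9, 82.0 and 34.4 on A/J array 3, each below the highest value of another array. Dcpp1, a demilune cell and parotid protein, had a signal of 4562 on A/J array 3 and of 44.1 or less on each other array. Dcpp3 of the same family had 1529 there and 201 or less elsewhere, although its probe set is of a type prone to cross-hybridisation. Agr2, a protein disulfide isomerase of mucus-secreting cells, had 481 there and 51.2 or less elsewhere. Without A/J array 3, the log2 differences of Dcpp1, Dcpp3 and Agr2 turned from -2.40, -1.11 and -1.09 to -0.11, 0.00 and 0.29 (limma, no filter; none was called with or without it). With these 3 genes and Smr2 left out, the summed salivary signal was 3697, 2964 and 3024.5 in A/J and 2192, 3161 and 2099 in DBA/2J.

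A search of all probe sets for a signal of at least 200 on 1 array and at least 4-fold over every other array, counted on signal + 16 and chosen after these values were seen, found 14 on A/J array 3. It found 2, 1, 0, 2 and 3 on A/J arrays 1 and 2 and DBA/2J arrays 1, 2 and 3. Of the 14, 13 name 1 gene. Lipf, an acid lipase of tongue glands and stomach, had 14698 on A/J array 3 and 227 on A/J array 2, and 14.9 or less on the others. Muc5b, a gel-forming mucin of saliva and airways, had 3215, with 411 on A/J array 2 and 37.3 or less on the others. Bpifb2, Gp2 and Wfdc18 had 2654, 2236 and 1974, and the trefoil peptide Tff2 had 1346. Dmbt1, the salivary agglutinin, had 589, Olfm4 had 661, Smgc, a product of the submandibular and sublingual glands, had 498, and Ugt3a2 had 231. A/J array 2 was second highest for Lipf, Muc5b and Wfdc18 (215 for Wfdc18). For Bpifb2, Gp2 and Tff2 it had 42.3, 109.7 and 65.7, little above the highest DBA/2J values of 39.5, 104.9 and 56.4. Dcpp1 and Agr2 were not raised on it, at 18.2 and 8.9. It was itself the array with the single Mucl2 signal of 387.5, against 76.2 or less elsewhere. Smr2 did not share this pattern: A/J array 1, where Lipf, Muc5b and Dcpp1 were at 14.9, 37.3 and 29.1, had nearly as much Smr2 as A/J array 3. Without A/J array 3 the Smr2 difference was -3.90 (limma adjusted p = 0.00157).

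**Figure D3:**
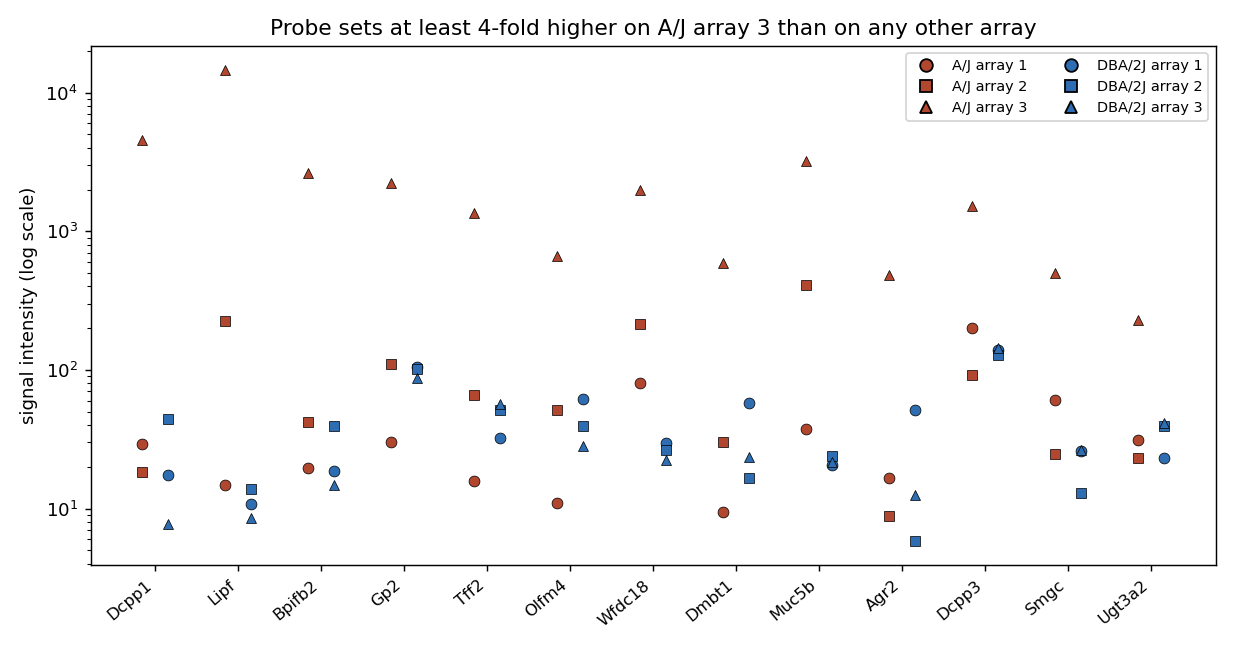
Signal intensity (log axis) of the 13 single-gene probe sets at least 4-fold higher on A/J array 3 than on any other array, A/J in red to the left and DBA/2J in blue to the right of each name. The red triangle of A/J array 3 lies above all other points for every gene, from 231 (Ugt3a2) to 14698 (Lipf).

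Slc26a4 was the thyroid marker that differed. Its signals were 243, 213 and 225 on the A/J arrays. On the DBA/2J arrays they were 603, 709 and 659.5. The groups lay well apart and each was tight, with an A/J mean of 227 ± 15.2 and a DBA/2J mean of 657 ± 53.1 (± SD, n = 3 arrays each). The log2 difference was 1.47 (SE 0.19, limma adjusted p = 0.00329). Without DBA/2J array 3, the array with Xist, it was 1.46 (limma adjusted p = 0.0150). With A/J array 2 as the only A/J array it was 1.55 (limma adjusted p = 0.141).

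Tg, whose product thyroglobulin makes up most of the protein of the thyroid follicle, did not share the strain difference of Slc26a4. It had 179.6, 159.7 and 174 in A/J, and 113, 302 and 155 in DBA/2J. The A/J values lay inside the DBA/2J range, and DBA/2J array 2 was the highest of all 6. The log2 difference was 0.03 (SE 0.33, limma adjusted p = 0.978). Slc26a4, Amy1 and Pth had their highest DBA/2J value on that array as well, and within each strain the arrays stood in the same order for Tg as for Slc26a4.

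The other thyroid genes gave no called difference. Of 14 follicular cell genes, 10 had a probe set and 8 were tested. Of these 8, Slc26a4 rose, where 2.17% of all genes tested did, and 7 did not pass. Their median log2 difference over the 10 genes without the filter was 0.03. The iodide transporter Slc5a5 (log2 difference 0.13), the thyrotropin receptor Tshr (-0.22), the transcription factors Pax8 (-0.16) and Hhex (-0.20), the iodotyrosine deiodinase Iyd (-0.04) and the oxidase maturation factor Duoxa2 (0.35) did not pass. The Duoxa2 groups did not overlap, as in 20.3% of all genes without the filter. The dimmer probe sets of Tshr gave -0.80 and 0.23 (limma adjusted p = 0.278 and 0.906, no filter). That of Slc5a5 gave 0.93 (adjusted p = 0.407). Nkx2-1, the transcription factor of thyroid and lung, was below the filter, with signals from 20.7 to 136 (log2 difference 0.61, limma adjusted p = 0.700, no filter). The summed signal of the 10 genes lay between 1744 and 1786 in A/J and between 1975 and 2550 in DBA/2J. Without Slc26a4 the sums were 1501, 1538 and 1561 in A/J and 1373, 1841 and 1322.5 in DBA/2J, and the strains overlapped. Of 5 C cell genes, 3 had a probe set, none was bright enough to be tested, and none had an unadjusted p under 0.05 in the fit without the filter. Their signals ran from 5.8 to 143.

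Some genes beside Slc26a4 on its chromosome were higher in DBA/2J as well. Of the 10 measured genes closest to it, 5 on each side, 9 entered the test and 2 rose, both on the same side of Slc26a4, where 2.17% of all genes rose. Gpr22, an orphan G protein-coupled receptor of brain and heart, had 262, 225 and 213 in A/J and 554, 690.3 and 584 in DBA/2J, which is a log2 difference of 1.33 (SE 0.20, limma adjusted p = 0.00740). Its other probe set gave 2.30 (limma adjusted p = 0.00147). Bcap29, a membrane protein of the endoplasmic reticulum, had 1675, 1385 and 1356 in A/J and 2638, 3155 and 2505 in DBA/2J, which is a log2 difference of 0.90 (limma adjusted p = 0.0322). On both, the lowest DBA/2J value exceeded the highest A/J value. The Bcap29 call was lost without any 1 of the arrays other than DBA/2J array 2, with adjusted p from 0.0642 to 0.142 in limma. It was also lost with no trend in the variance (limma adjusted p = 0.0520). Dus4l, which lies between them, and Cog5, whose span contains that of Gpr22, had differences of 0.48 and 0.51 that did not pass. The 5 genes on the other side, Cbll1, Slc26a3, Dld, Lamb1 and Fam110c, ran from -0.61 to -0.20. None of the 4 of them that were tested was called (Fam110c had the lowest limma p, 0.0350, adjusted 0.274). Slc26a3, the paralogue of Slc26a4 among them, was dim, with 145, 104.7 and 124 in A/J and 68.0, 104.3 and 74.6 in DBA/2J.

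**Figure D4:**
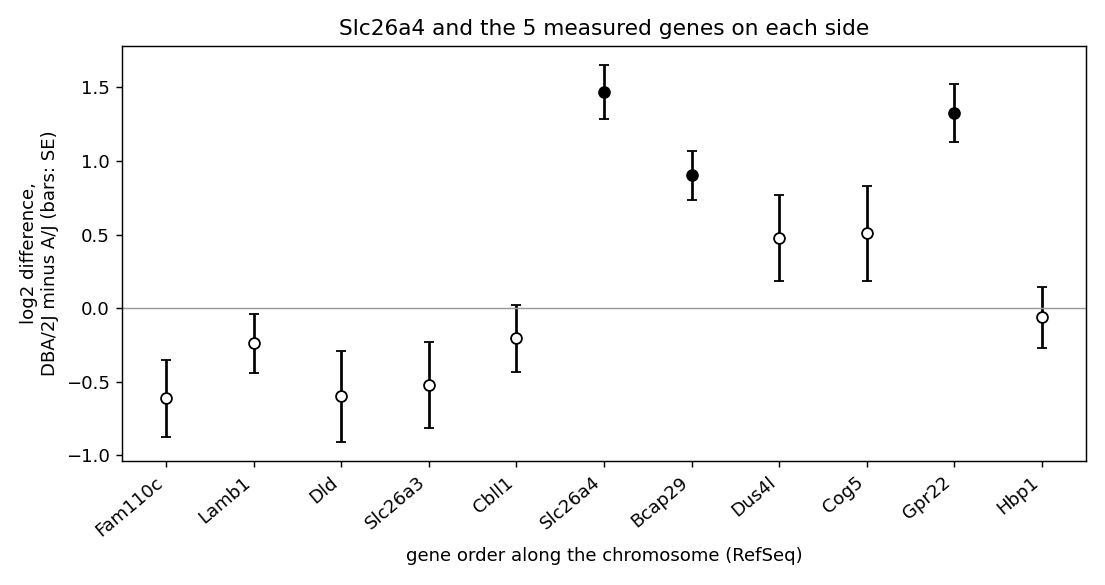
Log2 difference, DBA/2J minus A/J, of Slc26a4 and the 5 measured genes on each side of it in RefSeq gene order, with SE bars from the limma fit without the filter on dim probe sets. Filled points were called; Slc26a4 (1.47), Bcap29 (0.90) and Gpr22 (1.33) were, and the 5 genes to the left of Slc26a4 lie below 0.

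Gpr22 was also 1 of the 5 genes most like Slc26a4 over the 6 arrays (Pearson r = 0.995). The others were Acpp (r = 0.998), Nudcd1 (r = 0.997), the sialyltransferase St8sia3 (r = 0.995) and Ms4a4d (r = 0.994). As for Smr2, these values describe arrays that fall into 2 strains. With strain means subtracted, the 5 were 1700120C14Rik, Krt5, Ucp1, Lexis1 and Acox2 (r from 0.993 to 0.996), again picked as the highest among all other genes tested. Of these, Ucp1, the uncoupling protein of brown fat, was itself lower in DBA/2J (log2 difference -1.31).

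Parathyroid genes gave no called difference. Pth, the hormone itself, was dim on all arrays, with 22.0, 45.2 and 51.3 in A/J and 42.0, 71.8 and 27.8 in DBA/2J. The strains overlapped, and the log2 difference was 0.17 (limma adjusted p = 0.913, no filter). Of 8 parathyroid genes, 5 had a probe set and 2 were tested. The calcium-sensing receptor Casr had a log2 difference of 0.37 (limma adjusted p = 0.515). Tbx1, a transcription factor of the pharyngeal pouches, had 266, 349 and 244 in A/J and 159, 199.7 and 148 in DBA/2J, groups that did not overlap, with a difference of -0.71 (limma adjusted p = 0.170). The vitamin D receptor Vdr was below the filter, at 167, 118 and 190.6 in A/J and 71.8, 44.0 and 54.9 in DBA/2J. Its strains did not overlap either (limma adjusted p = 0.104, no filter). Gata3, needed for parathyroid development, stayed between 9.3 and 19.1. In limma 1 of the 2 tested genes had an unadjusted p under 0.05, and 2 of the 5 without the filter. Over all genes this held for 2228 of 13006 tested and for 15.1% without the filter. The groups did not overlap in 20.3% of all genes without the filter.

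Epithelial genes that these glands share did not move in 1 direction. Of 20 genes, 19 had a probe set and 10 were tested. Of these 10, Spint1 rose, Epcam fell and 8 did not pass, where 2.17% of all genes tested rose and 1.6% fell. The median log2 difference over the 19 was -0.07. Spint1, an epithelial inhibitor of serine proteases, had 151, 216 and 159 in A/J and 827, 819 and 739.6 in DBA/2J (log2 difference 2.10, limma adjusted p = 0.000999). Epcam, a surface adhesion protein of epithelia, had 1327, 2647 and 1287 in A/J and 289.7, 319 and 688 in DBA/2J (4.01-fold lower in DBA/2J on the scale of the fit, SE of the log2 difference 0.38, limma adjusted p = 0.0226). Its highest A/J value was on array 2, where Smr2 was lowest. The Epcam probe set is of the type prone to cross-hybridisation, and the other one was dim, from 17.6 to 74.4. The call was lost without A/J array 1, 2 or 3 or DBA/2J array 1 (limma adjusted p from 0.0558 to 0.112) and with both probe sets averaged (-1.03, adjusted p = 0.111). The keratins Krt18 (log2 difference 1.09, limma adjusted p = 0.0971), Krt8 (-0.48), Krt19 (-0.19) and Krt5 (-0.18) did not pass, and Krt7, Krt14 and the cadherin Cdh1 were below the filter.

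**Figure D5:**
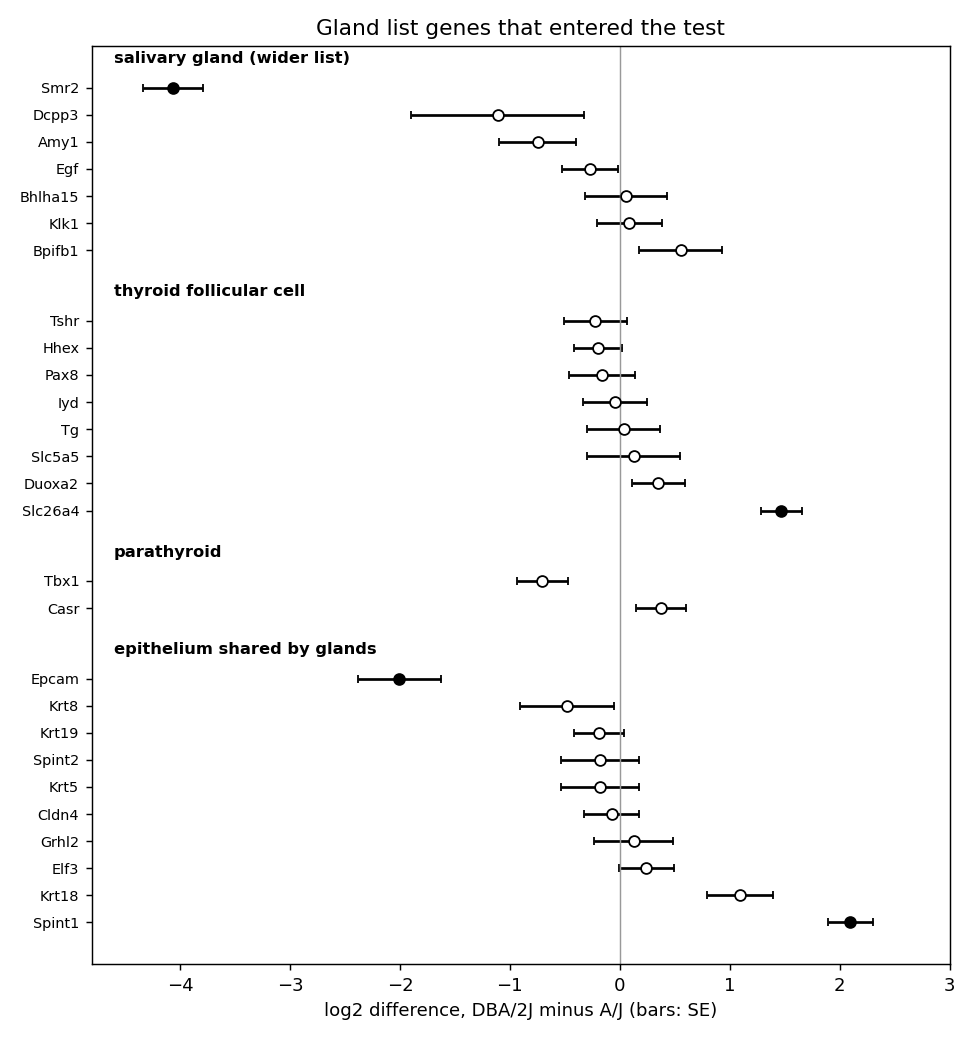
Log2 difference, DBA/2J minus A/J, with SE bars, of the genes of the salivary, thyroid, parathyroid and shared epithelial lists that entered the limma test, each by its brightest probe set (3 arrays per strain). Filled points passed an adjusted p of 0.05: Smr2 (-4.06), Slc26a4 (1.47), Epcam (4.01-fold lower) and Spint1 (2.10).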

How the data were processed

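The deposited values are intensity signals from Affymetrix Mouse 430 2.0 arrays, linear and with 1 decimal, from 0.1 to 27051; the platform is per the labels' design text, and the software that made them was not given in the sources used here. All 6 arrays have a 2%-trimmed mean of 500.0, so the authors had scaled them, and no further normalization was applied. Per the labels' protocols, RNA was extracted with Trizol and amplified in repeated rounds from an oligo(dT) primer, which favours probe sets near the 3′ end. Names came from the annotation GEO holds for the platform, with symbols updated by gene identifier through a RefSeq table (GRCm38.p6), which also gave gene order. Of 45101 probe sets, 64 controls were left out, 34945 name 1 gene (34741 matched), 932 several and 9160 none here.

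After log2(signal + 16), the 60% of probe sets with the highest mean (27022, 13006 genes) were fitted with limma 3.58.1 (R 4.3.3; lmFit, eBayes with trend, two-sided, Benjamini-Hochberg over all probe sets). The brightest probe set naming a gene alone stood for it. An exact permutation test of 3 against 3 cannot go below 0.1, so none was used. The fit was tested on simulated data. The members and lists were chosen with earlier results of these data known. Named genes were the members, up to 6 called genes per gland list, the 5 most correlated genes and the 5 measured neighbours on each side of Smr2 and Slc26a4; other list genes are named to describe their list, and genes of the single-array search were named after their values were seen. Labels do not say how pools relate, so p-values measure the spread between pools. Promoters were aligned with Biopython 1.88 and figures drawn with matplotlib 3.10.9.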

Additional observations from a re-analysis of the deposited data

How the results depend on the processing

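The Smr2 and Slc26a4 calls held under quantile normalization, median scaling, pseudocounts of 1 and 64, no filter, a filter keeping 40%, no trend in the variance, array weights, averaged probe sets, a random block and without each array in turn, with log2 differences from -4.37 to -1.63 for Smr2 and from 1.31 to 1.53 for Slc26a4. Amy1 passed only with array weights (-1.17, limma adjusted p = 0.0271, against 0.0835 to 0.982 over the other alternatives). The array-wide count of 883 probe sets was 345 to 1338 with 1 array left out and 3007 with array weights.

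Of the 3 arrays per strain, 2 share a title number with an array of the other strain. Deviations from the strain means correlated at -0.26 and 0.035 within these pairs, so the numbers were not taken to pair the arrays. With this number as a fixed replicate block, Smr2 was at -3.78 (limma adjusted p = 0.0659) and Slc26a4 at 1.58 (adjusted p = 0.202). Then 0 probe sets and 0 members passed, with 1955 probe sets and 2 members at an unadjusted p under 0.05. Only the arrays that share a number inform the strain difference in this fit, so it has little power (median SE 0.326 against 0.241). Within the shared numbers, Smr2 differed by -3.42 and -4.14 and Slc26a4 by 1.66 and 1.49.

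Chosen after seeing the data, the fit with A/J array 2 as the sole A/J array, assumed to vary like the DBA/2J arrays, called 78 probe sets and 1 member, with Slc26a4 at 1.55. The fit with the muscle list as a covariate called 0 probe sets and 0 members (2498 and 2 at an unadjusted p under 0.05), with Smr2 at -2.20 and Slc26a4 at 1.94; its median SE was 0.892 against 0.241.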
